A study of Homo sapiens with 70 samples.

Results

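IMR90 cells are human fetal lung fibroblasts that divide in culture until they are driven into arrest. HMGA1 was knocked down in these cells while they were growing, and the comparison described here is between 8 libraries with the hairpin (Grow-shA1) and 8 with the empty hairpin vector (Grow), 16 of the 70 samples of the series, chosen by their labels alone. Every cell in both groups carried the pLNCX2 vector for ER:HRAS G12V, an oncogenic RAS that is active only after 4-hydroxytamoxifen (4OHT), and neither group received 4OHT, so both stood at day 0. Grow cells carried the control vector, pMSCV miR v, and Grow-shA1 cells carried pMSCV miR shHMGA1, a retroviral short hairpin RNA in a microRNA backbone. A single hairpin sequence was used, and transcripts it may act on besides *HMGA1* were not tested. Cells were kept in DMEM with 10% fetal calf serum under 5% oxygen, and polyadenylated RNA was sequenced in bulk. With RNA from whole cultures, fewer cells of a type and less RNA per cell cannot be told apart. Where named, the other knock-downs of *HMGA1* with this hairpin were in the same fibroblasts after 6 days of 100 nM 4OHT, which brings on oncogene-induced senescence (OIS, 8 libraries, and OIS-shA1, 8), and in H1299 cells, a line from a human lung carcinoma (H1299, 7 libraries, and H1299-shA1, 6).

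HMGA1 is a small, abundant chromatin protein of the high mobility group. Its AT-hooks, short basic motifs, grip the minor groove of AT-rich DNA, where it bends the helix, competes with linker histone H1 and helps transcription factors such as NF-kB and AP-1 to assemble on promoters. It is plentiful in embryonic and dividing cells, and in senescent fibroblasts it is a structural part of the heterochromatin foci that form in the nucleus. Fibroblasts build the collagen and elastic matrix of a tissue, and they can also turn on a secretory programme of cytokines, chemokines and matrix-degrading proteases, which in senescent cells is called the senescence-associated secretory phenotype (SASP).

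Outside the cell type markers, the gene lists with the largest median rise and fall were the SASP cytokines and the genes of the amino acid response. Stretches of promoter from these lists that hold a short motif are shown so that the members can be compared. A stretch from *MMP10*, a metalloproteinase in neither list, is added. Promoters were read from RefSeq on GRCh38.p14, 250 bases before each start site being searched on both strands, and capitals mark the match. The NF-kB type motif was GGGNNNTTCC, the AP-1 type TGANTCA and the amino acid response type TGATGNAA. No string of letters can match more than 1 of these at the same place on the same strand. The AP-1 type motif leaves its middle base open, and in *MMP10* that base is A. The windows lie at chr4:73869285-73869364 (+ strand) for *CXCL1*, chr4:74099223-74099302 (- strand) for *CXCL2*, chr4:74038718-74038797 (- strand) for *CXCL3*, chr4:73998718-73998797 (- strand) for *CXCL5*, chr4:73836559-73836638 (+ strand) for *CXCL6*, chr4:76023625-76023704 (- strand) for *CXCL10*, chr7:22727097-22727176 (+ strand) for *IL6*, chr7:97872427-97872506 (- strand) for *ASNS* and chr11:102780646-102780725 (- strand) for *MMP10*.
CXCL1: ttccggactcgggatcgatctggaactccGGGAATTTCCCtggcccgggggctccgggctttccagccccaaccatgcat
CXCL2: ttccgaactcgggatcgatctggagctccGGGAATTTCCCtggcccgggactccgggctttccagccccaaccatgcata
CXCL3: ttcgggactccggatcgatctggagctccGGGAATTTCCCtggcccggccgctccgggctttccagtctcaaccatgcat
CXCL5: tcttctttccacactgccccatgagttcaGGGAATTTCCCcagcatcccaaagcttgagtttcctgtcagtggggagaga
CXCL6: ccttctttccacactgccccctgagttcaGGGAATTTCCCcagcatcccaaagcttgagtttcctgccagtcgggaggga
CXCL10: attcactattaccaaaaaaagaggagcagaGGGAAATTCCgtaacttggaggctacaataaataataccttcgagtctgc
IL6: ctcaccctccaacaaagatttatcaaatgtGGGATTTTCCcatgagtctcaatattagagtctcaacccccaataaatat
ASNS: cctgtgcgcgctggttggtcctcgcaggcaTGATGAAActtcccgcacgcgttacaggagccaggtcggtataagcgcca
MMP10: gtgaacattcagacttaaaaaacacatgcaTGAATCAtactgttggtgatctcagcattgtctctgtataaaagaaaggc

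In *CXCL1*, *CXCL2*, *CXCL3*, *CXCL5* and *CXCL6* the capitals hold 2 overlapping matches, 1 on each strand. These 5 are duplicated genes of 1 cluster and share much of their sequence, so they are not independent examples. The NF-kB type motif was found in the promoters of 7 of the 13 SASP cytokines that rose and had a promoter in the table (53.8%), in 1 of 3 that did not pass the test (*CCL20*), in 6.64% of the 10114 tested genes with a promoter and in 5.61% of all 27305 promoters. Among genes that rose by at least 1.5-fold the share was 9.24%, and among genes that fell by as much it was 4.73%. The amino acid response type motif was in 1 of the 13 fallen members of that list with a promoter (*ASNS*, asparagine synthetase) and in 2 of the 4 that rose (*ATF3* and *CHAC1*), against 1.32% of tested genes and 3.19% of all promoters. The AP-1 type motif was in 1 of the 2 risen metalloproteinases with a promoter in the table (*MMP10*). It was in 3 of the 13 risen SASP cytokines (*CXCL8*, *IL1A* and *TNFSF15*) and in 1 of 3 that did not pass (*IL11*). The share was 8.4% of genes that rose by at least 1.5-fold, 7.09% of genes that fell by as much, 3.95% of tested genes and 6.6% of all promoters. A match is a description of the letters, and whether any factor was bound there was not tested. The gene lists were chosen with earlier results of these data known. Their motif shares against those of all genes or promoters therefore do not bear on why members rose or fell.

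Levels are given in CPM, the fragments of a gene out of 1000000 counted in the library after TMM scaling, which evens out composition between libraries. They compare a gene with itself between groups and not 1 gene with another, since gene length is not taken into account. *HMGA1* (ENSG00000137309, chr6:34204650-34214008 on hg19) was at 417 to 523 CPM in the 8 Grow libraries (median 442) and at 25.4 to 37.1 CPM in the 8 Grow-shA1 libraries (median 34). Every Grow-shA1 library was thus far below every Grow library. The log2 fold change, always Grow-shA1 over Grow, was -3.79 ± 0.07 (SE, 8 against 8 libraries, edgeR quasi-likelihood test, adjusted p = 2.49e-24), a 13.9-fold fall. *HMGA2*, the close relative with the same AT-hooks, went the other way, from 1113 to 1328 CPM in Grow to 1354 to 1648 in Grow-shA1, without overlap (log2 fold change 0.37 ± 0.05, adjusted p = 8.7e-07). *RPSAP52*, a transcript antisense to *HMGA2*, was at 5.02 to 8.56 CPM in Grow and at 15.2 to 19.4 in Grow-shA1 (log2 fold change 1.43 ± 0.10, adjusted p = 1.68e-11). The counting took no account of strand, so reads of overlapping antisense pairs cannot be told apart where their exons overlap.

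The libraries were sequenced to a similar depth, 13904974 to 21337019 counted fragments in Grow and 14260656 to 18590171 in Grow-shA1. On a principal component analysis the 8 Grow-shA1 libraries lay on 1 side of the leading component (34.9% of the variance) and the 8 Grow libraries on the other. Libraries were made with 1 of 2 kits and run on 1 of 2 instruments, and the sources used here do not say which library went with which, so kit or instrument and group cannot be told apart. The labels name biological replicates without saying what set them apart. Their protocol text gives 6 for each condition where 8 libraries are titled, while the paper's methods give 8 replicates per condition. Some libraries may still share a source, since neither text settles it. The p-values, computed with 8 a group, measure the spread among these 16 libraries. Some inflammatory genes varied together among the Grow libraries: replicate 1 held the highest Grow level of *MMP3*, *MMP1*, *MMP10*, *IL24*, *CSF3*, *CXCL8*, *SERPINB2* and *PTGS2*, and replicate 8 the lowest of all these but *MMP10*. In Grow-shA1 replicate 8 was likewise lowest for all these but *MMP10* and *CSF3*. Replicate 1 of Grow-shA1 was highest for *MMP3*, *MMP1* and *SERPINB2*, but not for the others. In the OIS comparison, OIS replicate 4 had 1903607 counted fragments against at least 16088398 in the other OIS libraries, and results that rest on it were also computed without it.

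Of 13072 genes tested, 3905 (29.9%) passed an adjusted p of 0.05, 14.8% higher and 15.1% lower in Grow-shA1. Counts of the gene lists below are to be read against these shares, which are not matched for the level of the genes. In the highest of 5 bins by mean CPM 17.4% of genes rose and 23.9% fell, and in the lowest 9.14% and 9.25%. Most of the changes were small: 81.1% of the changed genes moved by less than 1.5-fold and 93.4% by less than 2-fold, and the median change was 1.21-fold. In 454 genes (3.47% of those tested) every Grow-shA1 library was above every Grow library, and in 554 (4.24%) every one was below. At the far end, 8 genes rose and 14 fell by at least 4-fold. The median log2 fold change of all tested genes was 0.01. The split between rises and falls moved with the scaling: with library sizes alone 2424 genes rose and 1597 fell, 60.3% higher against 49.4% with TMM scaling, while the median of all genes stood at 0.03. Protein-coding genes were called in 31.4% of 11829 tested, and long non-coding RNAs in 16.5% of 774, of which 90 rose and 38 fell.

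**Figure D1:**
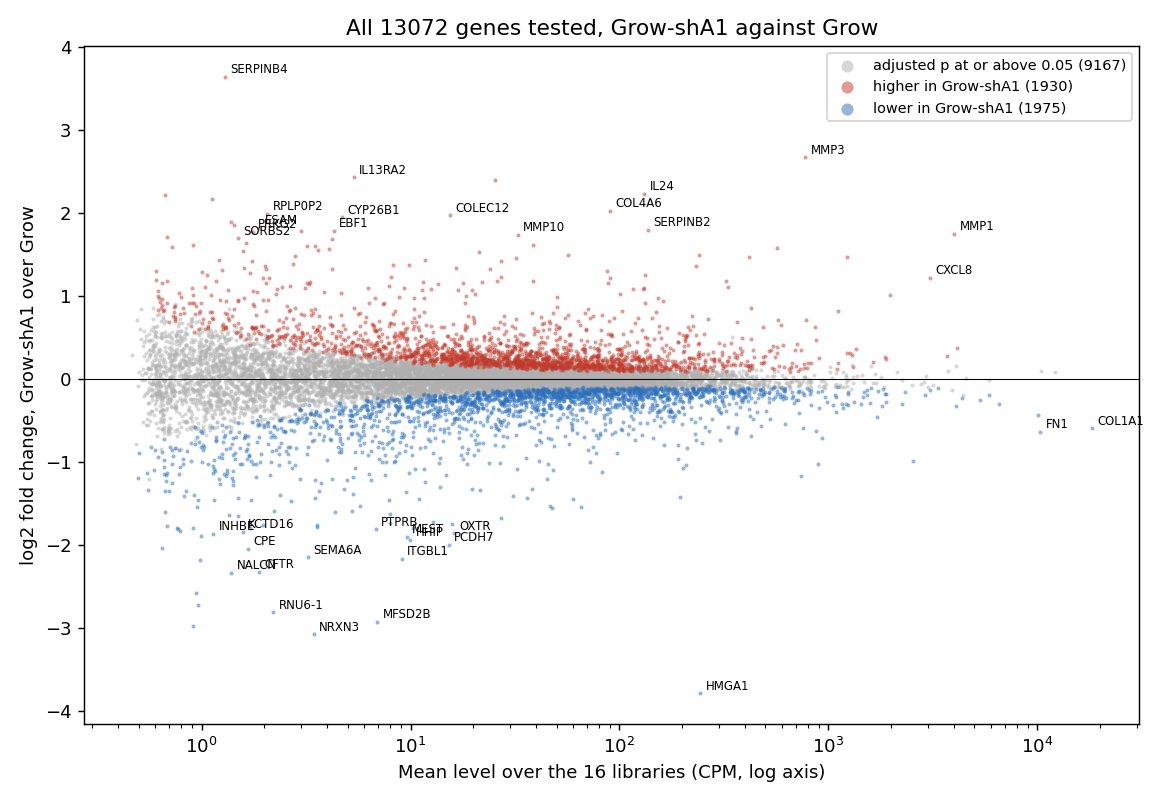
Each point is 1 of the 13072 genes tested, with its mean level over the 16 libraries on a log axis (CPM) and its log2 fold change, Grow-shA1 over Grow. Red genes rose, blue genes fell and grey genes did not pass an adjusted p of 0.05. *HMGA1* is the lowest point at -3.79, and the most abundant changed genes, such as *COL1A1* and *FN1*, moved by less than 1 log2 unit.

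Matrix proteases, serpins, cytokines and receptors were among the genes with the largest rises. The 15 largest rises among genes with a mean of at least 1 CPM and no overlap between groups, and the 15 largest falls by the same rule, are described in full. *MMP3*, stromelysin, which cuts proteoglycans and activates other proteases, was at 143 to 389.8 CPM in Grow (median 194) and at 875 to 1712 in Grow-shA1 (median 1331). Its log2 fold change was 2.67 ± 0.15 (adjusted p = 6.11e-13), a 6.38-fold rise. *MMP1*, interstitial collagenase, stood at 1294 to 2794 CPM in Grow and at 4826 to 7564 in Grow-shA1 (1.75 ± 0.12, adjusted p = 1.13e-11). *MMP10*, a second stromelysin, went from 11.3 to 20.3 CPM to 32.7 to 61.8 (1.74 ± 0.12). Part of the exons of *MMP1* (7.61% of their bases) overlaps the pseudogene *WTAPP1*.

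A pair of clade B serpins, which inhibit proteases inside cells, was among the largest rises. *SERPINB4*, which inhibits serine and cysteine proteases, rose from 0.0949 to 0.363 CPM in Grow to 0.704 to 3.93 in Grow-shA1, with a log2 fold change of 3.65 ± 0.37 (adjusted p = 1.96e-08). The Grow levels rest on a handful of fragments, and *SERPINB3* is a near-identical neighbour, so the assignment between them is uncertain. *SERPINB2*, plasminogen activator inhibitor 2, went from a median of 53.4 CPM in Grow (32 to 115) to 213 in Grow-shA1 (144 to 290.1), a change of 1.80 ± 0.18, and 19.9% of its exon bases overlap *SERPINB10*.

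Receptors and cytokines followed. *IL13RA2*, a decoy receptor for interleukin 13, was at 0.673 to 2.61 CPM in Grow and at 6.72 to 10.9 in Grow-shA1 (2.43 ± 0.18). *IL24*, a cytokine of the interleukin 10 family, had a median of 35.9 CPM in Grow (15.6 to 103) and of 217 in Grow-shA1 (151 to 286), with a change of 2.23 ± 0.23. The Grow value of 103 belongs to replicate 1. *COLEC12*, a scavenger receptor with a collagen-like stem, rose from 4.56 to 8.35 CPM to 21.1 to 31.9 (1.97 ± 0.10). *COL4A6*, a basement membrane collagen chain, rose from 30 to 39.8 CPM to 132 to 161 (2.03 ± 0.06, adjusted p = 3.1e-19), the lowest adjusted p of the 15 rises.

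The other rises among the 15 were at low levels. *CYP26B1*, which degrades retinoic acid, rose from a median of 1.76 to 7.50 CPM (1.95 ± 0.15). *EBF1*, a transcription factor of B cells and adipose progenitors, rose from 1.94 to 6.81 CPM (1.79 ± 0.13), and *PRKG2*, a cyclic GMP-dependent kinase, from 0.834 to 2.71 CPM (1.77 ± 0.23). *SORBS2*, an adaptor of the actin cytoskeleton, rose from 0.706 to 2.35 CPM (1.70 ± 0.19). *ESAM*, an adhesion molecule of endothelial cells, rose from 0.841 to 3.01 CPM (1.82 ± 0.21), and *RPLP0P2*, a pseudogene of the ribosomal protein gene *RPLP0* and therefore uncertain in its reads, from 0.698 to 2.80 CPM (1.99 ± 0.31).

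The 15 largest falls included channels, receptors and adhesion proteins. *NRXN3*, a synaptic adhesion protein, was at 2.83 to 7.34 CPM in Grow (median 6.47) and at 0.433 to 1.05 in Grow-shA1 (-3.08 ± 0.19, adjusted p = 3.77e-12). *NALCN*, a sodium leak channel, fell from a median of 2.15 to 0.404 CPM (-2.34 ± 0.26). *CFTR*, the chloride channel mutated in cystic fibrosis, was at 1.71 to 3.92 CPM in Grow and at 0 to 1.29 in Grow-shA1 (-2.33 ± 0.29). *OXTR*, the oxytocin receptor, went from 14.1 to 36.9 CPM to 4.10 to 9.15 (-1.86 ± 0.16).

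*ITGBL1*, a secreted protein with integrin beta-like repeats, was at 10.0 to 20.2 CPM in Grow and at 2.33 to 4.64 in Grow-shA1 (-2.17 ± 0.14, adjusted p = 6.58e-12). *PCDH7*, a protocadherin, fell from 20.1 to 30.4 CPM to 3.24 to 8.85 (-2.0 ± 0.13). *HHIP*, which binds and holds back hedgehog ligands, fell from a median of 15.6 to 3.34 CPM (-1.94 ± 0.16), and *PTPRB*, a receptor tyrosine phosphatase of vessels, from 10.4 to 2.99 CPM (-1.82 ± 0.15). *MEST*, an imprinted gene of the mesoderm, fell from 14.8 to 4.22 CPM (-1.90 ± 0.14), with 15.3% of its exon bases shared with neighbouring genes. *SEMA6A*, an axon guidance ligand, fell from 5.15 to 1.18 CPM (-2.15 ± 0.20), *CPE*, a carboxypeptidase that trims peptide hormones, from 2.79 to 0.656 CPM (-2.05 ± 0.18), and *KCTD16*, an auxiliary subunit of the GABA-B receptor, from 2.39 to 0.635 CPM (-1.85 ± 0.20). *INHBE*, an activin subunit, fell from 1.6 to 0.516 CPM (-1.87 ± 0.23).

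A further pair of large falls is set apart because it recurred in the other cells. *MFSD2B*, a sphingosine-1-phosphate transporter, was at 9.72 to 14.7 CPM in Grow and at 1.12 to 1.96 in Grow-shA1 (-2.93 ± 0.12, adjusted p = 7.16e-16), and 10.5% of its exon bases overlap *FKBP1B*. *RNU6-1*, a copy of the U6 small nuclear RNA gene, was at 2.28 to 5.25 CPM in Grow and at 0.281 to 0.753 in Grow-shA1 (-2.82 ± 0.21). U6 RNA has no poly(A) tail and many near-identical copies, so this count is uncertain.

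**Figure D2:**
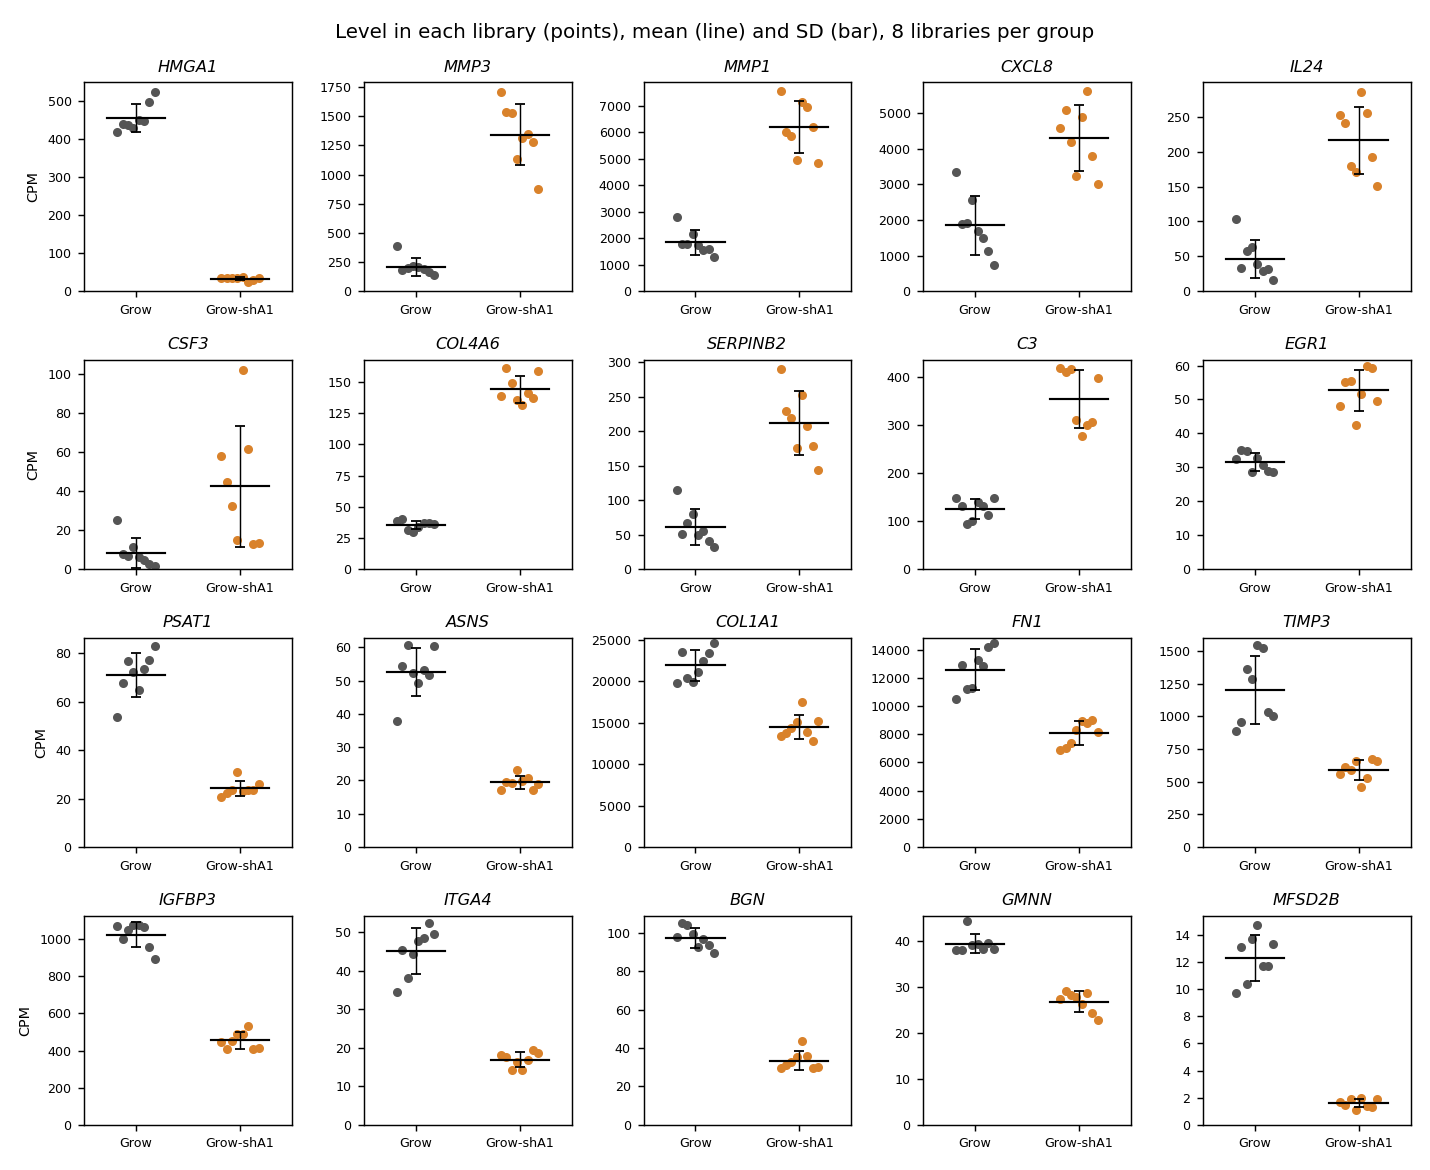
Level of 20 genes in CPM in each of the 8 Grow and 8 Grow-shA1 libraries (points, in replicate order from left to right), with the mean as a line and the SD as a bar; each vertical axis starts at 0. *CXCL8* and *CSF3* overlap between the groups, while *HMGA1*, *MMP3*, *COL4A6*, *PSAT1*, *ASNS*, *BGN* and *MFSD2B* do not.

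Most of the secreted inflammatory factors tested were higher in Grow-shA1. Of 22 SASP cytokines and chemokines tested, 14 rose (63.6%, against 14.8% of all genes), 2 fell and 6 did not pass, and the median log2 fold change of the list was 0.78, against 0.01 over all genes. All 14 that rose did so by at least 1.5-fold, but only 4 of them separated the groups without overlap. *CSF3*, granulocyte colony-stimulating factor, had the largest rise of the list at 2.40 ± 0.43 (adjusted p = 9.11e-05): it spanned 1.54 to 25.3 CPM in Grow (median 6.60) and 13.1 to 102 in Grow-shA1 (median 38.4), so the groups overlapped through Grow replicate 1, and without any 1 library the change stayed between 2.08 and 2.84. *CXCL8*, the neutrophil chemokine interleukin 8, was at 724 to 3353 CPM in Grow (median 1789) and at 3012 to 5621 in Grow-shA1 (median 4392), with a change of 1.22 ± 0.20 (adjusted p = 2.89e-05) and 6 of 8 Grow-shA1 libraries above all Grow libraries. *CXCL10*, a chemokine for T cells, rose without overlap from 13.7 ± 3.01 to 34.6 ± 8.18 CPM (SD, n = 8 each, log2 fold change 1.33), *IL1A* by 0.74, *CSF2* by 0.73 and *TNFSF15* by 1.09.

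Not every member followed. *CXCL12*, the stromal chemokine that holds blood progenitors in their niche, fell from 20 to 31.7 CPM to 5.23 to 17.1 without overlap (-1.02 ± 0.17), and *CSF1*, macrophage colony-stimulating factor, fell by 0.13 ± 0.05 (adjusted p = 0.0462, a call that several alternatives lost). *CCL2* (-0.14 on the log2 scale), *CCL20* (-0.13), *IL15* (-0.15), *LIF* (0.36), *TSLP* (0.43) and *IL11* (0.51) did not pass.

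In the NF-kB pathway, 11 of 26 tested members rose, 4 fell and 11 did not pass, with a median of 0.14. The members with the larger rises were targets and feedback genes. *C3*, the central complement component, was at 93.8 to 147 CPM in Grow and at 277 to 418 in Grow-shA1 (1.5 ± 0.10, adjusted p = 1.08e-11). *PTGS2*, the inducible cyclooxygenase, spanned 82.5 to 389 and 248 to 704 CPM (1.11 ± 0.23, adjusted p = 0.00044), with overlap. *IRAK2*, a kinase of the interleukin 1 receptor complex, rose from 50.1 ± 6.27 to 86.5 ± 10.9 CPM (0.79), *NFKBIZ*, a nuclear I-kappa-B, from 92.5 ± 18.3 to 153 ± 14.8 CPM (0.73) and *TNFAIP3*, a feedback inhibitor, by 0.60. The transcripts of the subunits *RELA* (adjusted p = 0.999) and *NFKB1* (0.12, adjusted p = 0.0942) and of the inhibitor *NFKBIA* (0.01) did not pass. The 4 that fell were the receptors *IL1RAP* (-0.34 ± 0.05) and *TNFRSF1A* (-0.30), the adaptor *TRAF1* (-0.34 ± 0.10) and the adhesion molecule *ICAM1* (-0.28).

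Metalloproteinases and their inhibitors moved unevenly. Of 15 tested, 7 rose, 3 fell and 5 did not pass, with a median of 0.13. Besides *MMP1*, *MMP3* and *MMP10*, the rises were *MMP17* (0.70), *MMP14* (0.24), *MMP19* (0.23) and *MMP2* (0.13). Of the tissue inhibitors, *TIMP3*, which binds to the matrix, was at 887 to 1546 CPM in Grow and at 460.2 to 677 in Grow-shA1, without overlap (-1.02 ± 0.10, adjusted p = 1.51e-08), and *TIMP1* fell by 0.25 ± 0.06, with overlap. *TIMP2* (-0.03) did not pass. Of 14 ADAMTS proteases, which process matrix proteins, 1 rose (*ADAMTS9*, 0.40 ± 0.15, adjusted p = 0.0494) and 3 fell, among them *ADAMTS3* (-1.21 ± 0.13) and *ADAMTS8* (-1.10 ± 0.24). These shares are 7.14% and 21.4%, against 14.8% and 15.1% of all genes.

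Several of the risen genes are neighbours, and 3 gene clusters were looked at after their values had been seen. On chromosome 4, from 74606223 to 75320726 on hg19, 18 genes were counted and 9 could be tested, of which 8 rose and none fell: *CXCL8*, *CXCL6*, *CXCL1*, *CXCL5*, *CXCL3* and *CXCL2*, all chemokines for neutrophils, and the epidermal growth factor-like ligands *EREG* and *AREG*. Among these chemokines only *CXCL1* rose without overlap between the groups, and *CXCL6* only just passed (0.60 ± 0.23, adjusted p = 0.0498 by the edgeR test). *MTHFD2L*, a folate enzyme in the middle of the cluster, had a log2 fold change of 0.25 ± 0.14 (adjusted p = 0.201). *EREG* rose from 36.2 to 80.8 CPM to 99.2 to 149 (1.16 ± 0.10), and *AREG*, which has a near-identical copy, from 0.550 to 1.52 CPM to 1.61 to 3.99 (1.34 ± 0.23), both without overlap. On chromosome 11, from 102447566 to 102826463, 4 of 13 counted genes could be tested and all 4 rose: *MMP10*, *MMP1*, *MMP3* and a gene without a symbol in the table used for names (ENSG00000110347, 0.41 ± 0.12). On chromosome 18, from 61143994 to 61672278, *SERPINB4* and *SERPINB2* rose, while *SERPINB7* (-0.08, adjusted p = 0.288) and *SERPINB8* (0.15, adjusted p = 0.0746) did not pass.

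Many genes of the extracellular matrix fell. In the list of elastic fibre and crosslinking genes 20 of 27 fell (74.1%, against 15.1% of all genes), 3 rose and 4 did not pass, with a median of -0.36, and 12 of the 20 fell without overlap. *MFAP4*, a microfibril protein, was at 13.8 to 24.4 CPM in Grow and at 5.16 to 7.44 in Grow-shA1 (-1.73 ± 0.12, adjusted p = 1.65e-11). *FBLN2*, a fibulin of elastic fibres, went from 10.7 to 14.1 CPM to 1.85 to 5.63 (-1.62 ± 0.14). *LOX*, which crosslinks collagen and elastin, fell from 1161 ± 109.6 to 709.7 ± 77.9 CPM (-0.71), and *FN1*, fibronectin, from 10481 to 14434 CPM to 6893 to 9019 (-0.64 ± 0.07, adjusted p = 4.8e-08). The 3 rises were *EMILIN2* (0.82 ± 0.16), *POSTN*, periostin (0.70 ± 0.11), and *LTBP4* (0.21), and *ELN*, elastin itself, did not pass (adjusted p = 0.99).

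Of 29 collagen genes, 12 fell, 5 rose and 12 did not pass, with a median of -0.10. *COL1A1*, the main fibrillar chain and the most abundant of the changed genes that moved by at least 1.5-fold, was at 19753 to 24619.8 CPM in Grow (median 21813) and at 12833 to 17516 in Grow-shA1 (median 14127). Its change was -0.60 ± 0.06 (adjusted p = 1.27e-08), without overlap. *COL11A1*, which seeds thin fibrils, fell from 12 to 15.6 CPM to 3.55 to 8.09 (-1.36 ± 0.13). Against this, the paired basement membrane chains *COL4A5* (136 to 176 CPM in Grow, 243 to 314 in Grow-shA1, 0.76 ± 0.05) and *COL4A6* both rose, while *COL4A1* fell by 0.33 and *COL4A2* did not pass (-0.06). Small leucine-rich proteoglycans were split, with 4 of 8 lower and 3 higher. *BGN*, biglycan, fell from 89.7 to 105 CPM to 29.6 to 43.7 (-1.54 ± 0.06, adjusted p = 1.1e-15), whereas *FMOD*, fibromodulin (0.69 ± 0.09), *DCN*, decorin (0.44 ± 0.08), and *LUM*, lumican (0.28), rose.

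Contractile genes and targets of SRF and YAP, which fibroblasts express as they spread and pull, showed falls without a rise: 14 of 31 fell, none rose and 17 did not pass, with a median of -0.13. With library sizes alone 13 fell and 1 rose. *ANKRD1*, a YAP target, fell from 21.9 to 52.3 CPM to 12.1 to 25.2, with overlap (-1.01 ± 0.16). *ACTG2*, a smooth muscle actin, fell from a median of 446 to 270 CPM (-0.65 ± 0.08), *TAGLN* from 909 ± 75.7 to 602 ± 69.1 CPM (-0.59) and *ACTA2*, the marker of myofibroblasts, from 396 ± 29.6 to 264 ± 43.3 CPM (-0.58). The factors themselves, *SRF* (0.10, adjusted p = 0.0735), *YAP1* (adjusted p = 0.988) and *MRTFA* (-0.04), did not pass.

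The integrin list had 5 falls and 3 rises among 15 tested, and with library sizes alone the order was turned, with 3 falls and 4 rises. Its largest fall (-2.17) was that of *ITGBL1*, which is integrin-like and not an integrin subunit. *ITGA4*, which pairs with beta 1 to bind fibronectin and VCAM1, was at 34.5 to 52.3 CPM in Grow and at 14.2 to 19.5 in Grow-shA1 (-1.41 ± 0.08, adjusted p = 4.06e-13). *ITGA2*, of the collagen receptor, rose from 1037 to 1201 CPM to 1306 to 1459 (0.31 ± 0.04), without overlap.

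As a check on the cells, all 12 fibroblast markers were tested, of which 7 fell, 3 rose (*PDGFRA*, 0.45 ± 0.08, *DCN* and *LUM*) and 2 did not pass, among them *VIM* (-0.04). Their summed level was 39871 to 49163 CPM in Grow and 30846 to 37777 in Grow-shA1. The largest falls were those of *COL1A1* and *THY1* (-0.57 ± 0.07). Of 10 epithelial markers 5 could be tested, 3 fell (*CLDN4*, -1.11 ± 0.21, *KRT8*, -0.91 ± 0.10, and *KRT18*, -0.40), and their sum was 70.0 to 92.8 CPM in Grow and 45.4 to 69.8 in Grow-shA1. *CDH1*, *EPCAM*, *KRT5*, *KRT14* and *SFTPC* had too few counts to be tested. Of the endothelial markers *TEK* (0.37 ± 0.05) and *ESAM* rose, summing to 133 to 149.8 and 156 to 204 CPM, while the defining genes *CDH5*, *KDR* and *VWF* were too low to be tested. Of the haematopoietic markers, *CD68* rose (0.23 ± 0.07, with 50.2% of its exon bases shared with other genes), *CSF1R* (0.28) and *CD14* (0.84) did not pass, and the sum was 17 to 22.6 against 20 to 25.6 CPM. The part of other cell types in the results was not tested.

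**Figure D3:**
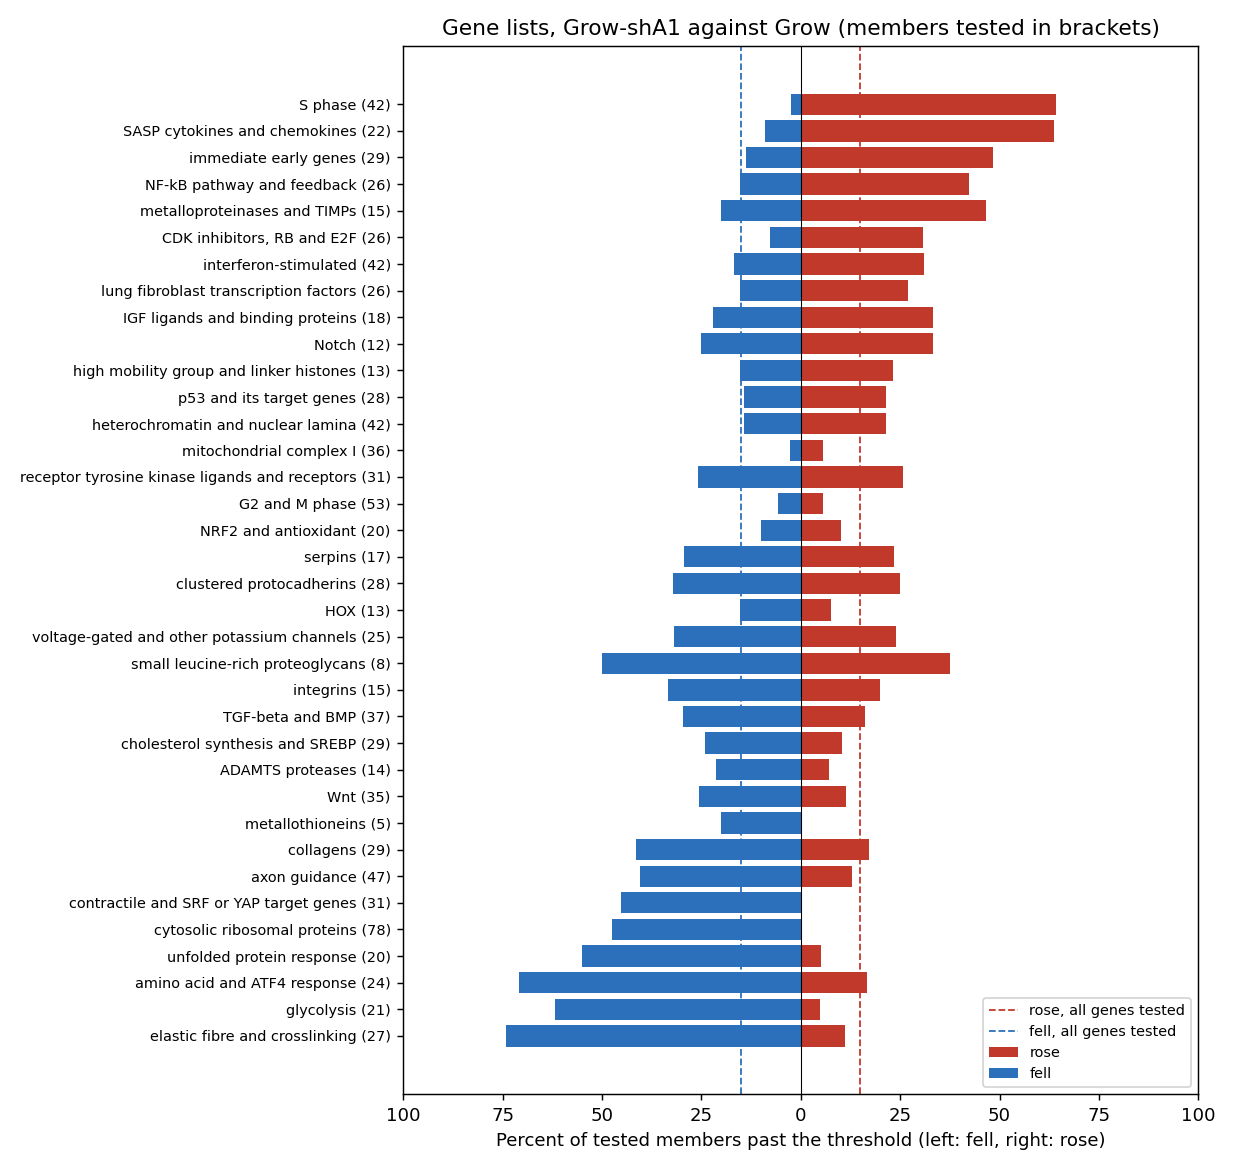
For each gene list outside the cell type markers, the bar to the right gives the percent of tested members that rose in Grow-shA1 and the bar to the left the percent that fell, with the number tested in brackets. Dashed lines mark the 14.8% and 15.1% of all genes that rose and fell. S phase and SASP cytokine genes stand furthest to the right, and elastic fibre, amino acid response and glycolysis genes furthest to the left.

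The enzymes that make and import amino acids fell together. This list, the genes that the transcription factor ATF4 turns on when amino acids run short, had 17 of 24 members lower (70.8%), 4 higher and 3 that did not pass, with a median of -0.39, and 13 of the 17 fell without overlap. *PSAT1*, of serine synthesis, was at 53.5 to 83.1 CPM in Grow (median 72.9) and at 20.5 to 30.9 in Grow-shA1 (median 23.4), a change of -1.56 ± 0.08 (adjusted p = 4.26e-14). *ASNS*, whose promoter is printed above, was at 37.9 to 60.6 and at 17 to 23.1 CPM (-1.44 ± 0.08, adjusted p = 1.71e-13). *PHGDH*, the entry enzyme of serine synthesis, fell from 61.8 ± 8.38 to 35.2 ± 3.86 CPM (-0.81), and *MTHFD2*, of the mitochondrial folate cycle, from 103 ± 6.40 to 67.2 ± 4.66 CPM (-0.61).

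The transporters moved with the enzymes. *SLC7A5*, which imports leucine, fell from 273 ± 25.7 to 129 ± 12.7 CPM (-1.08), its partner chain *SLC3A2* from 115 ± 12.2 to 74.3 ± 5.27 CPM (-0.64) and *SLC7A11*, which imports cystine, from 65.8 ± 5.09 to 30.7 ± 3.13 CPM (-1.10). The transcript of *ATF4* itself fell by 0.13. The 4 members that rose were *CHAC1* (0.55 ± 0.09), which degrades glutathione, *ATF3* (0.40 ± 0.08), *CEBPB* (0.34) and *STC2* (0.31).

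Members of other housekeeping lists changed by small amounts. In the unfolded protein response, 11 of 20 fell, 1 rose (*ATF6*, 0.18 ± 0.04) and 8 did not pass, with a median of -0.14. The largest falls there were *HERPUD1* (-0.37 ± 0.05) and *CRELD2* (-0.27 ± 0.07), and the chaperone *HSPA5* fell by 0.16. In glycolysis, 13 of 21 fell, 1 rose (*PFKM*, 0.21 ± 0.04) and 7 did not pass, with a median of -0.15. *SLC2A1*, the main glucose transporter, went from 467 to 512 CPM to 315 to 435 (-0.44 ± 0.05), without overlap, and *ALDOC* fell by 0.62 ± 0.10, with overlap through Grow-shA1 replicate 5.

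Of 78 cytosolic ribosomal protein genes 37 fell and none rose, with a median of -0.12 and a single member without overlap. This count moved with the processing more than any other of the larger lists, from 26 to 52 when 1 library was left out and to 23 with library sizes alone, and in none of these did a member rise. In mitochondrial complex I, 2 subunits rose, 1 fell and 33 of 36 did not pass, with a median of 0.00. In cholesterol synthesis 7 of 29 fell and 3 rose, led by *SCD*, stearoyl-CoA desaturase (127 ± 8.92 to 68.3 ± 10.3 CPM, -0.90 ± 0.07), and *STARD4* (-0.80 ± 0.06). Antioxidant genes had 2 rises and 2 falls among 20 (10% each, against 14.8% and 15.1% of all genes). Their largest rise was that of *SOD3*, the extracellular superoxide dismutase, at 17.2 to 21.1 CPM in Grow and at 32.4 to 72.3 in Grow-shA1 (1.61 ± 0.12).

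Genes of DNA replication rose by small amounts. Of 42 S phase genes 27 rose (64.3%), 1 fell and 14 did not pass, with a median of 0.19, and only 1 rose by as much as 1.5-fold. *PRIM1*, DNA primase, had the largest rise, from 7.95 to 11.4 CPM to 10.4 to 17.9 (0.63 ± 0.10), and *CDC45*, of the replicative helicase, rose by 0.35 ± 0.06. The helicase subunits *MCM2* (0.32), *MCM4* (0.28) and *MCM6* (0.19) rose too. *GMNN*, geminin, which holds back licensing of replication origins, was the exception: it fell without overlap, from 38 to 44.3 CPM to 22.7 to 29 (-0.56 ± 0.05, adjusted p = 8.04e-09). *PCNA* (0.10, adjusted p = 0.114) did not pass.

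Of 53 genes of G2 and mitosis tested, 3 rose, 3 fell and 47 did not pass, with a median of -0.03. Counts this small moved with single libraries: the falls went to 1 without Grow replicate 5, 6, 7 or 8 or Grow-shA1 replicate 3 or 5, to 5 without Grow-shA1 replicate 6 and to 6 without Grow-shA1 replicate 8, and the rises to 5 without Grow replicate 8. With library sizes alone 4 rose and 1 fell. The rises were *RANGAP1* (0.29 ± 0.04), *CKAP2L* (0.24 ± 0.05) and *HMMR* (0.22), the falls *CKS2* (-0.17 ± 0.05), *ANLN* (-0.17 ± 0.06) and *CDCA3* (-0.16). *MKI67*, the antigen of dividing cells, had a log2 fold change of 0.16 (adjusted p = 0.119), and *CDK1* one of 0.03. Among CDK inhibitors and RB and E2F genes 8 of 26 rose and 2 fell, with *E2F1* (0.38), *E2F2* (0.61 ± 0.15), *CCNE1* (0.31) and *CDKN1C* (0.74 ± 0.22) higher and *CDKN2B*, the inhibitor p15, lower (-0.50 ± 0.12). *CDKN2A*, which encodes p16 and ARF, was at 2.54 ± 0.43 and 3.4 ± 0.54 CPM (0.41, adjusted p = 0.0200), and *CDKN1A*, p21, at 684 ± 30 and 630.3 ± 53.8 CPM (-0.12, adjusted p = 0.0523), which missed the threshold.

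In p53 and its targets 6 of 28 rose (21.4%) and 4 fell (14.3%), near the 14.8% and 15.1% of all genes. *GDF15* (0.43 ± 0.09) and *XPC* (0.30 ± 0.05) were highest and *CCNG1* (-0.44 ± 0.06) and *SESN2* (-0.43 ± 0.06) lowest, and *MDM2* did not pass (-0.03). Interferon-stimulated genes were split as well, 13 of 42 higher and 7 lower, with a median of 0.06. *IFI44* (0.56 ± 0.10) rose without overlap and *IFIT3* rose by 0.47 ± 0.08, while *IFI27* (-0.55 ± 0.20, a call that several alternatives lost) and *IFI6* (-0.34 ± 0.09) fell.

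**Figure D4:**
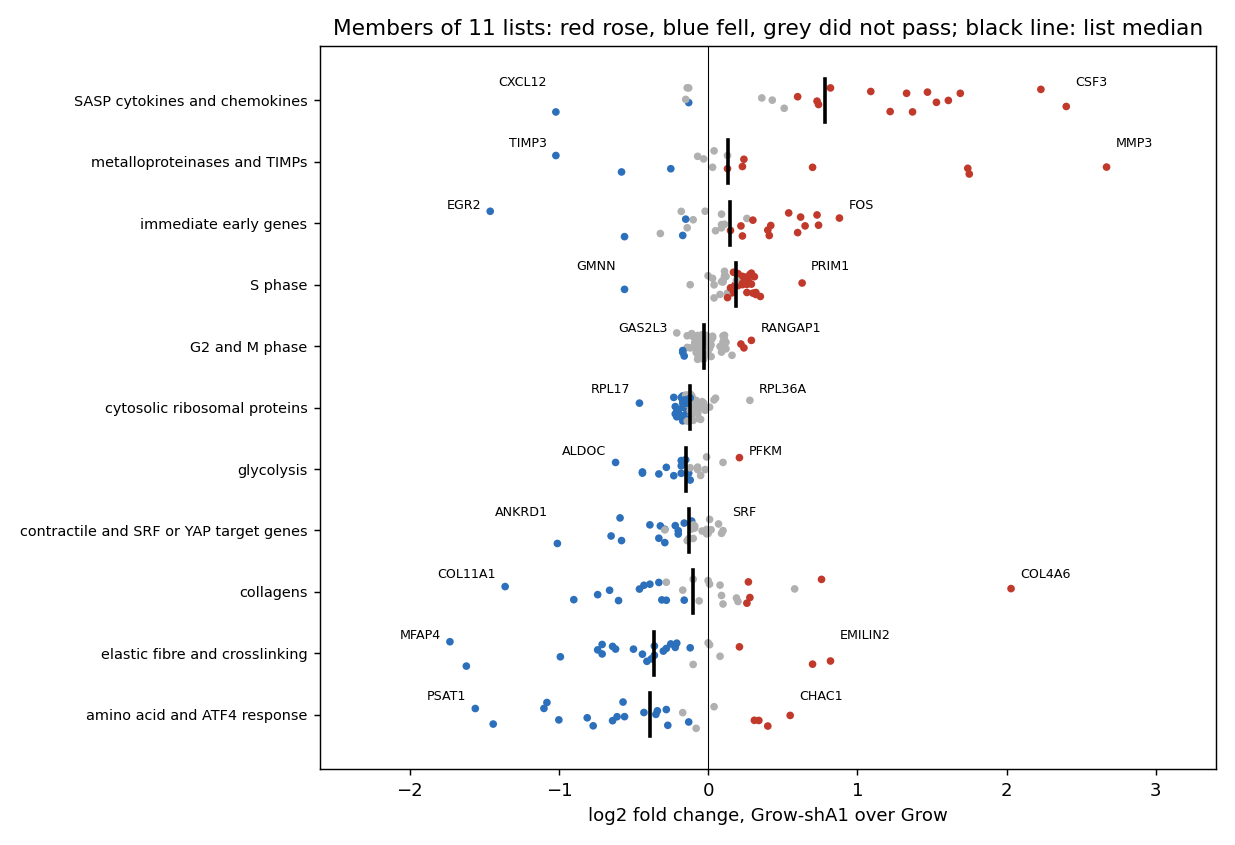
Each point is a tested member of 1 of 11 gene lists, at its log2 fold change, Grow-shA1 over Grow; red members rose, blue fell and grey did not pass, and the black line is the list median. SASP cytokines centre on 0.78 and amino acid response genes on -0.39, while S phase genes gather just above 0 except *GMNN* at -0.56.

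Of 31 receptor tyrosine kinase ligands and receptors 8 rose and 8 fell. Besides *AREG* and *EREG*, *NRG1*, neuregulin, rose without overlap from 74.5 ± 20.9 to 158 ± 22.3 CPM (1.09), and *EGFR* rose by 0.31, while *HBEGF*, another ligand of that receptor, fell by 0.24. On the falling side, *PDGFA*, a mitogen of fibroblasts, was at 12.6 to 14.1 CPM in Grow and at 6.24 to 8.15 in Grow-shA1 (-0.92 ± 0.07, adjusted p = 1.12e-10), and *GAS6*, the ligand of AXL, fell by 0.49 ± 0.08.

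Immediate early genes, which respond within minutes to such signals through ERK, rose in 14 of 29 cases and fell in 4, with a median of 0.15. *EGR1* was at 28.7 to 35 CPM in Grow and at 42.4 to 60 in Grow-shA1, without overlap (0.74 ± 0.06, adjusted p = 1.43e-09), and *FOS* rose from a median of 1.88 to 2.87 CPM, with overlap (0.88 ± 0.21). The feedback inhibitors *DUSP6* (0.73), *SPRY2* (0.65) and *SPRY1* (0.60) rose. *EGR2*, a relative of *EGR1*, fell from 1.74 to 3.88 CPM to 0.418 to 1.29 (-1.46 ± 0.22), and *MYC* fell by 0.56 ± 0.14.

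In the IGF system 6 of 18 rose and 4 fell. *IGFBP3*, the main carrier of IGF, was at 894 to 1075 CPM in Grow and at 408 to 534 in Grow-shA1 (-1.17 ± 0.05, adjusted p = 1.29e-14). *IGF2* rose from 533 to 708 CPM to 818 to 1117 (0.71 ± 0.07), with 27.6% of its exon bases shared with other genes, and *STC1*, which inhibits the protease PAPPA that frees IGF, rose from 942 to 1869 CPM to 2219.9 to 3097 (1.01 ± 0.10). *PAPPA* itself rose by 0.71, and the receptor *IGF1R* fell by 0.31 ± 0.05.

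In the TGF-beta and BMP list 11 of 37 fell and 6 rose (8 and 7 with library sizes alone). The activin subunits *INHBE* and *INHBB* (1.62 ± 0.356 to 0.203 ± 0.14 CPM, -2.98) had the largest falls and *GDF5* fell by 1.0 ± 0.32, while the ligands *BMP2* (0.54 ± 0.08) and *BMP4* (0.51) rose. *TGFB1* fell by 0.36 and *TGFB2* rose by 0.33. In the Wnt list 9 of 35 fell and 4 rose: the antagonists *DKK2* (3.41 to 7.61 CPM in Grow, 0.714 to 3.12 in Grow-shA1, -1.76 ± 0.20) and *SFRP1* (286 ± 30.5 to 106 ± 18.9 CPM, -1.43) and the ligand *WNT2* (-1.43 ± 0.16) fell without overlap, and *WNT7B* (1.15 ± 0.13) and the transcription factor *TCF7* (0.97 ± 0.14) rose without overlap.

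In the Notch list 4 of 12 rose and 3 fell. The ligand *DLL4* rose from 62.9 to 116 CPM to 156 to 199 (1.08 ± 0.09, adjusted p = 2.95e-10) and the target *HEY1* rose by 1.04 ± 0.15, whereas the ligand *JAG1* (-0.37 ± 0.09) and the target *HES1* (-0.53 ± 0.10) fell. Of 47 axon guidance genes 19 fell and 6 rose, with a median of -0.14. *SLIT2*, a repellent ligand, went from 6.60 to 9.49 CPM to 1.11 to 3.88 (-1.59 ± 0.16), its receptors *ROBO1* (-0.26) and *ROBO2* (-0.79) fell, and the ephrins *EFNB1* (-0.89) and *EFNB2* (-0.96) and the receptor *EPHB3* (-0.98) fell. *EPHB6*, which lacks kinase activity, rose from 0.166 to 0.917 CPM to 1.11 to 2.60 (1.43 ± 0.24), and *SEMA6D* rose by 0.58 ± 0.05.

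The clustered protocadherins are neighbouring adhesion genes of which many share their last exons. Of the 28 tested 12 did not pass, 7 rose, 6 of them in the beta cluster, led by *PCDHB15* (1.16 ± 0.20) and *PCDHB7* (0.88 ± 0.25), and the 9 that fell were all in the gamma cluster, led by *PCDHGA12* (-0.76 ± 0.10) and *PCDHGC5* (-0.75 ± 0.26). Of the exon bases of *PCDHGA12*, 45.9% are shared with the other gamma genes, so the gamma values are uncertain. Potassium channels had 6 rises, among them *KCNJ15* (1.34 ± 0.11) and *KCNF1* (1.08 ± 0.09), and 8 falls, among them *KCNK6* (-0.79 ± 0.13) and *KCNK2* (-0.75 ± 0.16), in 25 tested.

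Transcription factors of lung fibroblasts changed in 11 of 26 cases, 7 up and 4 down. *FOXF1*, the lung mesenchyme factor, rose from 152 to 186 CPM to 224 to 249 (0.48 ± 0.04) and *TBX2* from 155 to 198 CPM to 212 to 277 (0.53 ± 0.05), both without overlap, while *SNAI1* (-0.70 ± 0.14) and *NR2F2* (-0.47 ± 0.05) fell. Of 13 HOX genes 1 rose and 2 fell (7.69% and 15.4%, against 14.8% and 15.1% of all genes). *HOXB5* fell by 0.25 ± 0.05 and *HOXB3* by 0.16 ± 0.05. With library sizes alone 3 rose and 1 fell.

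Most other architectural chromatin genes did not pass. Of 13 high mobility group and linker histone genes 3 rose, among them *HMGA2* and *H1-2* (0.49 ± 0.09, 8.72 ± 1.12 to 12.3 ± 1.37 CPM, without overlap), *HMGN2* fell by 0.15 ± 0.05 besides *HMGA1*, and *HMGB1* and *HMGB2* did not pass. Most histone transcripts, such as those of *H1-2*, lack poly(A) tails, so their counts here cover a small part of their RNA. Of 42 genes of heterochromatin and the nuclear lamina, 9 rose and 6 fell, with a median of 0.04 and no change as large as 1.5-fold. These shares, 21.4% and 14.3%, lie near those of all genes, and the counts moved to 12 and 2 with library sizes alone and to 8 and 3 without Grow replicate 8. *LMNB1*, lamin B1, fell by 0.18 ± 0.05 (adjusted p = 0.0126), *CBX7* rose by 0.39 ± 0.13 and *EZH2* rose by 0.19.

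The position and composition of a gene were compared with whether it changed, since HMGA1 binds AT-rich DNA. Genes were ranked by each property and cut into 5 bins of equal size. In the bin with the fewest coding genes within 500 kb (0 to 6) 18.7% rose and 18.7% fell, and in the bin with the most (26 to 69) 11.6% rose and 11.7% fell, so both directions were more frequent in gene-poor surroundings. Among genes with a mean of at least 10 CPM the shares were 21.6% and 20.6% against 14.1% and 14.1%, at median levels of 47.4 and 41 CPM. By AT content of the gene's span, the most AT-rich bin had 16% higher and 19% lower and the least AT-rich bin 11.5% and 15.2%. The bins between, from low to high AT content, had 14.7%, 16.3% and 15.3% higher and 13.7%, 13.6% and 14.1% lower, so the falls did not climb steadily. The Spearman correlation of AT content with the log2 fold change was 0.005 across the 13072 genes, which are not independent replicates. The longest genes were called most often, 20.7% higher and 18% lower in the top bin by span against 11.2% and 12.5% in the bottom bin. Rises of at least 1.5-fold were about as frequent in both (3.67% and 3.52%), while falls of that size were more frequent in the top bin (4.93% and 2.37%). The share called also went with the level of a gene: 17.4% rose and 23.9% fell in the bin with the highest mean CPM, and 9.14% and 9.25% in the lowest. Changes of at least 1.5-fold ran the other way, with 1.87% higher and 1.41% lower in the highest bin and 6.27% and 6.88% in the lowest. Length, AT content, gene density and level go together in the genome, and their separate parts were not tested. By chromosome, the share that rose ran from 7.93% on chromosome 19 to 22.7% on chromosome 18, and the share that fell reached 21.8% on chromosome 4.

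The same hairpin lowered *HMGA1* in the other cells, by 3.62 on the log2 scale in OIS and by 2.31 in H1299, against 3.79 in Grow, and the effect in OIS could not be told from that in Grow (interaction 0.17 ± 0.09, adjusted p = 0.172). The 3 comparisons share no library. In OIS 18.8% of 13327 tested genes rose and 17.1% fell, and in H1299 8.65% of 14840 rose and 6.93% fell. The OIS split turned with the scaling: with library sizes alone 1553 genes rose and 4037 fell, 27.8% higher against 52.3% with TMM scaling, and the median of all genes stood at -0.09. Of the 15 largest rises in Grow, all 15 were tested in OIS, where 12 rose and none fell, and 7 in H1299, where 3 rose (*IL13RA2*, *MMP1* and *MMP10*) and none fell. Of the 15 largest falls, 7 of 11 tested in OIS fell and 2 of 13 tested in H1299 did, *MFSD2B* and *RNU6-1*.

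Whether an effect differed in size between OIS and Grow was tested with an interaction term, which passed for 23.6% of 13903 genes. For 14 of the 15 rises it passed with a smaller effect in OIS, *MMP10* being the exception (-0.21 ± 0.15, adjusted p = 0.331). For the 15 falls it passed in 6, with a smaller effect in OIS in 5 and a larger one for *CFTR*. Of these, *NRXN3* and *CFTR* had too few counts to be tested in OIS alone, so their interaction values are uncertain. With library sizes alone the interaction passed for 4344 genes in place of 3281, 20.4% of them with the higher effect in OIS against 51.7% with TMM scaling, and its median over all genes moved from -0.01 to -0.13. Among the 15 rises and the 15 falls the counts that rose, fell or passed the interaction, in OIS and against Grow, were the same numbers under that scaling and without OIS replicate 4. Since these genes were picked for the size of their change in Grow, a smaller effect elsewhere is partly set by the choice. *SERPINB4*, for example, rose by 3.65 in Grow and had a change of 0.14 in OIS (adjusted p = 0.277), and *ITGBL1* fell by 2.17 in Grow and had one of -0.02 in OIS.

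Gene lists also stood differently in the 3 comparisons, although no test was run on the difference of a list. The amino acid response had 4 higher and 17 lower of 24 in Grow, 7 higher and 6 lower of 24 in OIS and 14 higher and none lower of 23 in H1299, with medians of -0.39, 0.10 and 0.23. The unfolded protein response had 1 higher and 11 lower of 20 in Grow, 17 higher and none lower in OIS and 2 higher and none lower in H1299. S phase genes had 27 higher and 1 lower of 42 in Grow and none higher and 9 lower of 41 in OIS (1 higher without OIS replicate 4). The SASP cytokines had 14 higher of 22 in Grow, 17 higher of 22 in OIS and 3 higher of 9 in H1299, with medians of 0.78, 0.52 and 0.24. Member by member, with TMM scaling, the interaction passed with a lower effect in OIS for 7 of 23 SASP cytokines and a higher one for 1. Over all 13903 genes it passed for 23.6%. Of the axon guidance genes 19 of 47 fell in Grow, 19 of 48 in OIS and 16 of 58 in H1299. The OIS counts moved with library sizes alone, to 4 higher and 6 lower for the amino acid response, 11 higher for the unfolded protein response, 14 lower in S phase and 27 lower in axon guidance, while the SASP cytokines stayed at 17 higher.

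**Figure D5:**
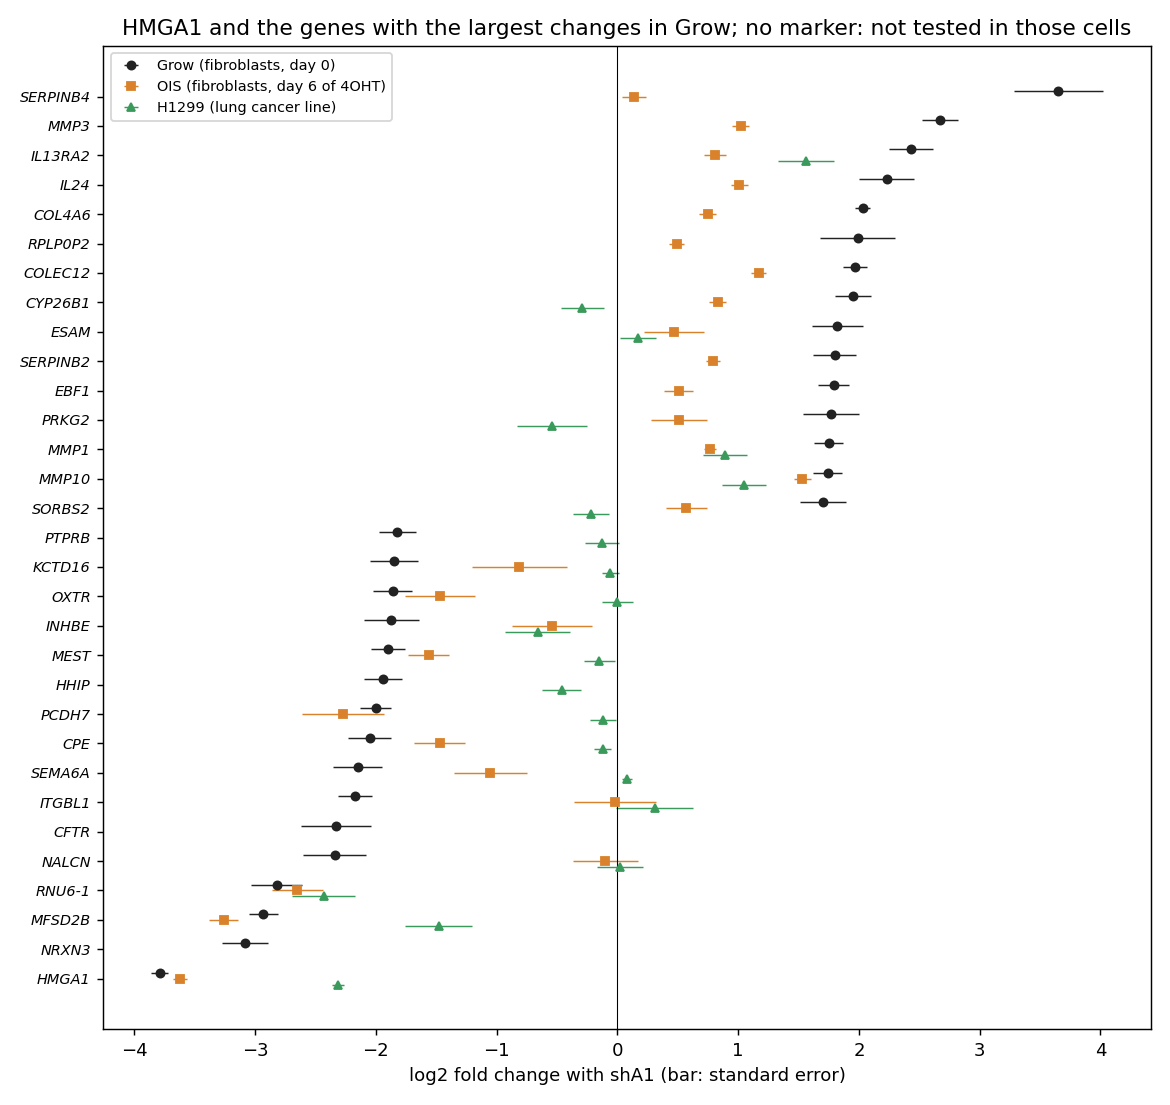
The log2 fold change with shA1, with its standard error as a bar, of *HMGA1* and of the 15 genes that rose most and the 15 that fell most in Grow, in Grow, OIS and H1299; a missing marker means too few counts to test. *HMGA1*, *MFSD2B* and *RNU6-1* lie far to the left in all 3, while *SERPINB4* and *ITGBL1* lie near 0 in OIS.

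Of 11873 genes tested in all 3 comparisons, 463 passed in each, 167 of them higher in all 3 and 122 lower in all 3. With a change of at least 1.5-fold in each, 7 rose and 12 fell, the same numbers as without OIS replicate 4 (6 and 13 with library sizes alone). The 7 were *IL13RA2* (2.43 in Grow, 0.81 in OIS and 1.56 in H1299), *MMP1* (1.75, 0.77 and 0.89), *MMP10* (1.74, 1.53 and 1.05), *CXCL2* (1.69, 0.89 and 0.62), *LIPG*, endothelial lipase (1.48, 1.63 and 0.76), *TBXAS1*, thromboxane synthase (1.46, 0.66 and 0.79), and *RPSAP52* (1.43, 1.74 and 0.86). The 12 were *HMGA1*, *MFSD2B* (-2.93, -3.26 and -1.48), *RNU6-1* (-2.82, -2.65 and -2.43), *TRIR* (-1.45, -1.44 and -0.92), *HR*, *SERPING1*, *L1CAM*, *NPTXR*, *JAK3*, *WNT9A*, *OLFML2A* and *ALDOC*. *TRIR*, telomerase RNA component interacting RNase, was at 85.2 to 91.8 CPM in every Grow library and at 26.3 to 36.9 in every Grow-shA1 library (adjusted p = 2.84e-17). All 3 comparisons used the same hairpin, so a direct effect of the hairpin and an effect of losing HMGA1 cannot be told apart for these genes.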

How the data were processed

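Bulk RNA of growing IMR90 fibroblasts was sequenced in 8 Grow and 8 Grow-shA1 libraries. The authors used STAR and the hg19 genome for alignment, and deposited whole-number counts of fragments per gene from featureCounts (version 1.5.2 in the file header), made without regard to strand and without multi-mapped fragments, with no normalization. Here the counts were tested in R 4.3.3 with edgeR 4.0.16 (filterByExpr with a minimum count of 10, TMM factors, glmQLFit and glmQLFTest, 8 against 8 libraries, no covariate), and p-values were adjusted by Benjamini-Hochberg over all 13072 genes tested of 44503 in the table. The threshold was an adjusted p under 0.05. CPM are on TMM-scaled library sizes, a change is a fitted log2 fold change with its standard error, and the fit was tested on simulated data. OIS and H1299 tables were fitted in the same way, and the interaction across the 4 IMR90 groups. Counts of 13904974 to 21337019 fragments per library set the precision, and levels under about 1 CPM rest on few fragments.

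Symbols were found for 95.9% of identifiers. Of 1303 different list genes 1296 were matched to an identifier. *CCL5*, *SOD2*, *IKBKE*, *MMP12*, *MMP28*, *UHRF1* and *PECAM1* were not matched and are missing from the counts of their lists. Lists of genes (40) and the rule for named genes were chosen with earlier results of these data known. The rule named *HMGA1*, the 15 largest rises and falls with a mean of at least 1 CPM and no overlap between groups, the 5 most abundant genes changed by at least 1.5-fold, and up to 2 members per list and direction. A few genes that the rule named are not reported here. Other members, the gene clusters and the genes shared by 3 comparisons were named after their values were seen. A gene overlapped unless every library of 1 group lay above every library of the other. Alternatives were DESeq2 1.42.0, other scalings and filters, stricter thresholds, a fit of all 4 groups, a block for replicate number, and each library left out in turn. Over all tested genes, same-numbered Grow and Grow-shA1 libraries did not deviate together (correlations of -0.113 to 0.16, 1 of 8 over 0.1), so the numbers were not taken as pairs. Some inflammatory genes were nevertheless lowest in replicate 8 of both groups. The comparison of OIS with Grow was not used, since it shares the Grow libraries.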

Additional observations from a re-analysis of the deposited data

Results flagged for a closer look

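Within the groups of 8 libraries of the named genes, 322 groups were checked for a library that stood apart from the other 7, and 19 did (chance alone flags about 5% of groups). Grow replicate 1 accounted for 5 of them: *MMP3* at 389.8 CPM and *CSF3* at 25.3 CPM lay above the rest of Grow, and *NRXN3* at 2.83, *CPE* at 1.89 and *JAG1* at 12.3 CPM lay below it. Grow-shA1 replicate 5 accounted for another 5, all above the rest of Grow-shA1, with *TIMP1* at 805, *BGN* at 43.7, *ALDOC* at 15.6, *AREG* at 3.99 and *SNAI1* at 7.14 CPM. In the other Grow libraries, *FMOD* stood out in replicate 5 (10.9 CPM), *GMNN* and *NDUFC1* in replicate 3 (44.3 and 26.1 CPM), *CCNG1* in replicate 6 (84.6 CPM), *NDUFV3* in replicate 7 (30.3 CPM, below the rest) and *NR2F2* in replicate 8 (111 CPM). In the other Grow-shA1 libraries, *SESN2* stood out in replicate 2 (12.2 CPM, below the rest), *RANGAP1* in replicate 6 (287 CPM, below the rest) and *IFI44* in replicate 7 (14.5 CPM).

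The effect of shA1 differed between OIS and Grow by the interaction test for 20 of the 30 genes with the largest changes in Grow, given here as the OIS effect less the Grow effect on the log2 scale. Among the rises the difference was -3.52 for *SERPINB4*, -1.65 for *MMP3*, -1.63 for *IL13RA2*, -1.22 for *IL24*, -1.28 for *COL4A6*, -1.51 for *RPLP0P2*, -0.80 for *COLEC12*, -1.12 for *CYP26B1*, -1.35 for *ESAM*, -1.01 for *SERPINB2*, -1.28 for *EBF1*, -1.26 for *PRKG2*, -0.98 for *MMP1* and -1.12 for *SORBS2*. Among the falls it was 2.46 for *NRXN3*, 2.24 for *NALCN*, -2.20 for *CFTR*, 2.16 for *ITGBL1*, 1.10 for *SEMA6A* and 1.33 for *INHBE*. The values of *NRXN3* and *CFTR* are uncertain, since both had too few counts to be tested in OIS alone. The genes were picked for the size of their change in Grow, which by itself favours a smaller effect in OIS.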

How the results depend on the processing

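The count of genes changed in Grow stayed within 1.5 times 3905 in every alternative of test, scaling, filter and fit: 4078 with DESeq2, 4021 with library sizes alone, 3795 without a filter beyond 1 count, 3752 with at least 10 counts in every library and 3818 with all 4 groups in 1 fit. Leaving out each library in turn gave 3611 (without Grow-shA1 replicate 3) to 4055 (without Grow-shA1 replicate 5). Stricter thresholds gave 2594 genes at an adjusted p under 0.01, 1255 of them higher, 737 with at least a 1.5-fold change (341 higher and 396 lower), and 257 with at least a 2-fold change (115 higher and 142 lower). The replicate number as a block gave 3962, and 4125 in OIS, 2407 in H1299 and 3276 for the interaction. Over all tested genes the numbers do not pair the libraries, since 3 of 16 correlated best with their own number. Without OIS replicate 4, an alternative chosen after seeing the data, the OIS count went from 4784 to 5155 and the interaction from 3281 to 3449. Of the 159 other named genes that passed, none changed direction, and 12 lost the call under some alternative (*ADAMTS9*, *ANLN*, *CBX7*, *CDKN1B*, *CSF1*, *EED*, *GDF5*, *HOXB3*, *IFI27*, *NDUFC1*, *PCDHGC5* and *RNF2*). The 30 largest changes kept it. The largest move among those was *IL24*, at 2.49 without Grow replicate 1. A term for the sequencing run was not tried, because the header names none. At this depth changes of genes near 1 CPM are the least certain.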

Other observations

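Of 17 serpins tested, which as a family inhibit proteases, 4 rose and 5 fell (5 and 5 with library sizes alone). *SERPING1*, the inhibitor of complement C1, fell without overlap from 4.19 to 6.49 CPM in Grow to 1.01 to 3.11 in Grow-shA1 (log2 fold change -1.35 ± 0.19, adjusted p = 5.25e-06), and it was 1 of the 12 genes that fell by at least 1.5-fold in each of the 3 comparisons. *SERPINA1*, alpha-1 antitrypsin, fell by 1.16, and *SERPINH1*, the chaperone of collagen folding, by 0.40. Of 5 metallothionein genes and their regulator tested, which buffer zinc and copper, 1 fell (*MT1E*, -0.30 ± 0.09) and none rose, and *MT2A* did not pass (-0.06).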
